A study of Mus musculus with 58 samples.

Results

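The long noncoding RNA genes Malat1 and Neat1 lie next to each other on mouse chromosome 19, and the binding of 7 tagged RNA-binding proteins to their chromatin was examined in embryonic stem cells. The members were the peaks that shared at least 1 bp with chr19:5785000-5860000 in mm9, a window of 75 kb that holds Malat1 at about chr19:5795690-5802672 and Neat1 at about chr19:5824710-5845480. This was 22 of the 156215 peaks in 9 chromatin immunoprecipitation sequencing (ChIP-seq) lists, from 9 of the 58 samples of the series. PSPC1 was studied as the AID-FB(KI)-PSPC1 knock-in, tagged at its own gene in cells made from the CJ9 line, with 2 libraries. It was also studied as overexpressed FB(OE)-PSPC1, with 1 library. hnRNPU, SAFB, SAFB2, CIRH1A, UTP3 and UTP6 were overexpressed with the same FB(OE) tag and had 1 library each. All overexpression cells came from BirA J1 cells, so knock-in and overexpressed PSPC1 differ in parental line and fixation as well as in the tagged form, and these cannot be told apart. The strain given for all 9 samples is 129/Ola, none was treated, and the FLAG antibody was used for every immunoprecipitation. Knock-in PSPC1, CIRH1A, UTP3 and UTP6 were fixed with 3% formaldehyde and overexpressed PSPC1 with 1%. hnRNPU, SAFB and SAFB2 received 2 mM of the protein crosslinker DSP before 1% formaldehyde and a streptavidin purification after the antibody. Outside the knock-in no protein has a replicate, and no test between proteins was possible.

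Neat1 RNA is the scaffold of paraspeckles, nuclear bodies that assemble on the RNA as it is transcribed. It is made as a short and a long isoform that share their start, and PSPC1 is among the paraspeckle proteins that bind it. Malat1 RNA, which has also been named Neat2, gathers in nuclear speckles, the neighbouring bodies rich in splicing factors, and its 3′ end is cut to release a small tRNA-like RNA, mascRNA. Both genes are transcribed toward lower coordinates, so Neat1 lies upstream of Malat1. hnRNPU, SAFB and SAFB2 are RNA-binding proteins of the nuclear matrix. CIRH1A, UTP3 and UTP6 act in the assembly of the small ribosomal subunit.

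The start of Malat1 lay under a peak in 4 lists, and its promoter is shown for that reason. RefSeq promoters were matched for 1 of the 2 members, Malat1. The sequence runs 5′ to 3′ from 250 bases before to 50 bases after the start, on the minus strand of GRCm38.p6, chr19:5802623-5802922. Capitals mark the matches to TGACG on either strand, the core of the cAMP response element.
Malat1 promoter: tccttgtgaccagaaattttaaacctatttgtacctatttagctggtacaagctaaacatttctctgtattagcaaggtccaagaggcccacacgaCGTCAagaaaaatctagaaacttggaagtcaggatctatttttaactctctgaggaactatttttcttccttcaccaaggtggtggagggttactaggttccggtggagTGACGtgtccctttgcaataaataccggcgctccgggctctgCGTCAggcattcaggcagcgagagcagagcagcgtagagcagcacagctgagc
The matches begin at bases 97, 206 and 248 of the sequence, and the last runs across the start itself. They do not overlap one another. Of 32851 RefSeq promoters of the same length, 20.8% held this motif at least once, and the share with 3 matches is not given here. A further 4 motifs, searched on both strands, were not in this window. These were the TATA box as TATAAA, found in 13.6% of promoters, and the CCAAT box, found in 37.4%. The others were the GC box as GGGCGG, found in 35.7%, and the E-box as CACGTG, found in 7.15%. The GC content of the Malat1 promoter was 47%, against a median of 52.7% over all promoters.

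Peaks of 7 lists fell in the window, and they were mostly those of PSPC1. The 3 PSPC1 lists gave 15 of the 22 peaks and held 64166 of all 156215. They are lists of 1 protein, so the same site can be counted in more than 1 of them. Knock-in replicate 1 had 3, replicate 2 had 7, a mean of 5 ± 2.83 (SD, n = 2), and overexpressed PSPC1 had 5. UTP6 had 4 peaks, and hnRNPU, CIRH1A and UTP3 had 1 each. SAFB and SAFB2 had 0 peaks in the window and 0 in the adjacent windows of 75 kb on either side. Summed over lists, the adjacent windows held 20 peaks on the side of lower coordinates and 9 on the side of higher coordinates. The locus therefore held about as many peaks as the former and more than the latter, and the excess over the flanks was not shared by all lists. Replicate 1 averaged 3 peaks per adjacent window, the same as in the locus. Replicate 2 averaged 3 against 7, overexpressed PSPC1 2.5 against 5, and UTP6 4.5 against 4. Of the 20 peaks on the side of lower coordinates, each knock-in list had 5 and overexpressed PSPC1 had 3. Of the 9 on the other side, each knock-in list had 1 and overexpressed PSPC1 had 2. PSPC1 peaks were thus frequent next to the locus as well.

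**Figure D1:**
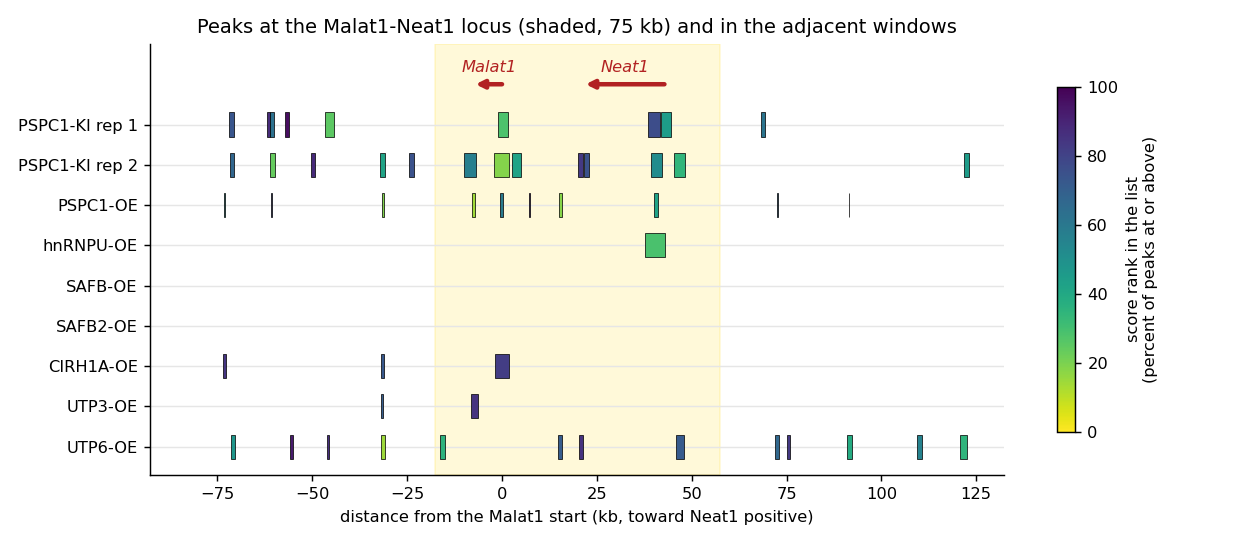
Each bar is a peak, placed by its distance in kb from the Malat1 start along the rows of the 9 lists, and coloured by its score rank within the list (yellow, highest scores). Red arrows are the genes in their direction of transcription and the shaded part is the 75 kb window, where the 3 PSPC1 lists hold 15 of the 22 peaks and the SAFB and SAFB2 rows are empty.

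The density of peaks in the window was compared with that of each list over chromosomes 1 to 19 and X. It was 5.76 times the genome value in knock-in replicate 1 (1.19 to 16.8) and 10.8 times in replicate 2 (4.35 to 22.3), a mean of 8.29 ± 3.57 (SD, n = 2). The ranges in brackets are intervals of the ratio, from the 95% exact Poisson interval of the peak count. Overexpressed PSPC1 reached 7.84 times (2.54 to 18.3). The values for CIRH1A, UTP6, hnRNPU and UTP3 were 3.69, 3.52, 3.45 and 2.44, and their intervals all included 1. For SAFB, 0 peaks allowed up to 12.4 times the genome density and for SAFB2 up to 19.8 times, so a depletion was not detectable. These intervals cover counting error only and take peaks as placed independently. Of 35168 genome windows of 75 kb, 5.79% held at least 3 peaks of replicate 1 and 1.16% at least 7 of replicate 2. For overexpressed PSPC1, 1.56% held at least 5. The share with at least as many peaks as the locus was 8.28% for UTP6, 20.6% for CIRH1A, 23.3% for hnRNPU and 29.2% for UTP3.

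The whole neighbourhood was dense in peaks. Within 1 Mb on each side of the window, the density was 3.36 times the genome value in the median list. Against this local density, knock-in replicate 1 had 2.05 times as many peaks in the window (0.423 to 5.99) and replicate 2 had 3.22 times (1.29 to 6.63). Overexpressed PSPC1 stood at 2.05 (0.666 to 4.79), hnRNPU at 1.78, UTP6 at 0.997, CIRH1A at 0.762 and UTP3 at 0.593. Knock-in replicate 2 was the only list whose interval lay above the local density. The local comparison was chosen after seeing the data.

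**Figure D2:**
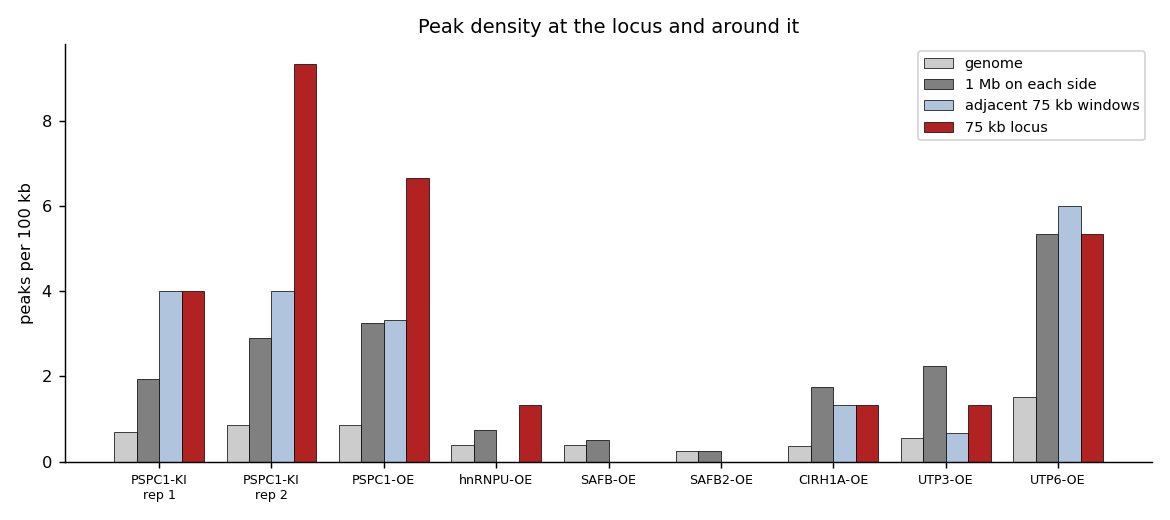
Bars give the number of peaks per 100 kb in each list for the genome, for 1 Mb on each side of the window, for the adjacent windows and for the 75 kb locus. The locus bar rises above the local bar in the 3 PSPC1 lists and hnRNPU, about equals it for UTP6 at 5.33 per 100 kb, lies below it for CIRH1A and UTP3, and is 0 for SAFB and SAFB2.

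On Neat1, 4 of the 9 lists had a peak: both knock-in lists with 2 each, and hnRNPU and overexpressed PSPC1 with 1 each. All 4 lists had a peak toward the 5′ end of the gene. In knock-in replicate 1, chr19:5841273-5844342 had a score of 37.1 (rank 14176 of 18455). A neighbouring peak at chr19:5844623-5847266, with a score of 58.1 (rank 8266), spanned the Neat1 start. The score is the authors' and ranks peaks within a list. In replicate 2, chr19:5841973-5844833 had a score of 52.3 (rank 11831 of 22926) and ended 647 bp inside the gene, short of the start. The hnRNPU peak at chr19:5840406-5845692 had a score of 88.5 (rank 2955 of 10279) and reached 212 bp upstream of the start and 5074 bp downstream of it. The peak of overexpressed PSPC1 at chr19:5842860-5843832 had a score of 100.6 (rank 9646 of 22785). It lay entirely inside the peaks of the other 3 lists, so that its 973 bp, from 1648 to 2620 bp downstream of the start, were the stretch of Neat1 with the most lists.

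The remainder of Neat1 was nearly empty. From chr19:5825666-5840405, which is 14.7 kb of the 20.8 kb gene, no list had a peak. At the 3′ end, knock-in replicate 2 had a peak at chr19:5824227-5825665 with a score of 38.4 (rank 17144), of which 956 bp lay on the gene. Knock-in replicate 1 had none there. Just beyond the 3′ end, replicate 2 and UTP6 had peaks that ended 599 and 734 bp short of the gene. Peaks covered 18.6% ± 0.378 (SD, n = 2) of Neat1 in the knock-in lists, 24.4% for hnRNPU and 4.68% for overexpressed PSPC1. The small SD does not mean that the same bases were covered in both knock-in lists. In replicate 1, 858 bp of the covered bases lay at the start, and in replicate 2, 956 bp lay at the 3′ end. The covered shares follow peak width. With every peak set to 500 bp around its midpoint, they were 2.41 and 4.75% in knock-in replicates 1 and 2. They were 2.41% for both hnRNPU and overexpressed PSPC1. In flanks as long as Neat1 on either side, peaks covered 5.08% in knock-in replicate 1, 19.1% in replicate 2, 0.51% for hnRNPU and 2.22% for overexpressed PSPC1. Knock-in replicate 2 therefore covered the flanks about as much as the gene. The knock-in lists reach down to a score of 30.0 and the others to 50. With a minimum of 50 in every list the same number of lists, 4, had a peak on Neat1, but replicate 1 kept only the peak at the start and its coverage fell from 18.9 to 4.13%. Among the 6670 highest scoring peaks of each list, the hnRNPU peak was the only one on Neat1.

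To read the presence of a peak against each list's background, chromosomes 1 to 19 and X were divided into 127009 tiles of the length of Neat1. Of these, 11.6% held a peak of knock-in replicate 1, 14% of replicate 2, 13.7% of overexpressed PSPC1 and 7.92% of hnRNPU, the lists with a peak on Neat1. Among the lists without a peak there, the share was 26% for UTP6, 10.8% for UTP3, 8.35% for SAFB, 7.22% for CIRH1A and 5.21% for SAFB2. UTP6, the longest list, thus had no peak on Neat1, as in most tiles of the genome. Most tiles within 1 Mb on each side of the window, by contrast, did hold a UTP6 peak (71.9%). A UTP6 peak ended 734 bp short of the gene. Peaks in at least 4 lists were found in 12.4% of the tiles. Within 1 Mb on each side of the window this share was far higher, with 43 of 96 tiles (44.8%) holding peaks of at least 4 lists. By list, the local share was 32.3% for knock-in replicate 1, 43.8% for replicate 2, 51% for overexpressed PSPC1 and 15.6% for hnRNPU. Among the lists without a peak on Neat1 it was 71.9% for UTP6, 40.6% for UTP3, 35.4% for CIRH1A, 9.38% for SAFB and 5.21% for SAFB2. The number of lists on Neat1 was thus reached in many tiles nearby.

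On Malat1, 5 of the 9 lists had a peak, and in 4 of them it spanned the start of the gene. In knock-in replicate 1, chr19:5801667-5804264 had a score of 89.5 (rank 5220 of 18455). The replicate 2 peak at chr19:5800537-5804573 had a score of 130.7 (rank 4247 of 22926), the highest score of a knock-in peak in the window. CIRH1A had its only peak of the window here, at chr19:5800895-5804440, with a score of 57.4 (rank 7969 of 9689). It reached 1768 bp upstream and 1777 bp downstream of the start. The peak of overexpressed PSPC1, chr19:5802044-5802869 with a score of 76.4 (rank 13364 of 22785), lay inside the other 3 and reached from 197 bp upstream to 628 bp downstream of the start. The PSPC1 lists and CIRH1A thus shared the start of Malat1, and the only list that marked the gene elsewhere alone was UTP3. Gene starts in this part of the chromosome often lay in peaks. Of 182 RefSeq starts at 3 to 7 Mb, 30.8% lay in a peak of overexpressed PSPC1 and 59.9% in one of UTP6. Such a share was not computed for knock-in PSPC1 or CIRH1A, so the shared start is not read as particular to Malat1.

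**Figure D3:**
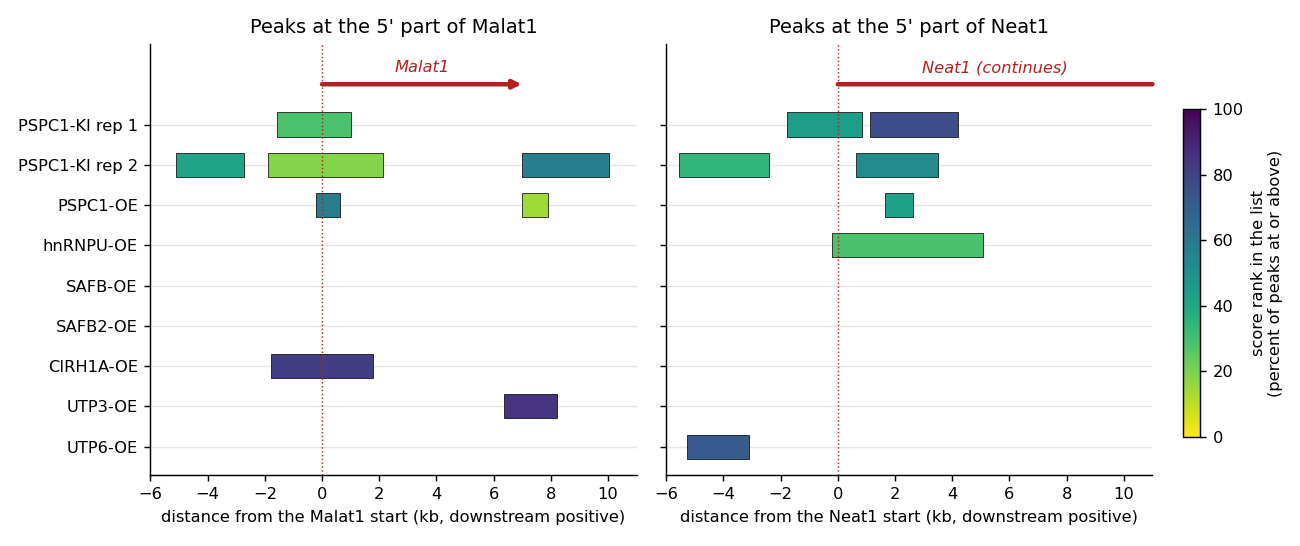
Peaks (bars, coloured by score rank within the list) are drawn by their distance in kb from the start of Malat1 (left) and Neat1 (right), downstream positive. At Malat1 4 peaks cross the dotted start line, while at Neat1 the 4 lists overlap from 1648 to 2620 bp downstream and only knock-in replicate 1 and hnRNPU cross the start.

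The 3′ end of Malat1, where mascRNA is cut from the transcript, had peaks of 3 lists. The UTP3 peak at chr19:5794449-5796323, its only peak of the window, had a score of 57.9 (rank 12344 of 14562), and 634 bp of it lay on the gene. A peak of knock-in replicate 2 at chr19:5792627-5795695, with a score of 48.0 (rank 13099), overlapped the gene by 6 bp. The peak of overexpressed PSPC1 at chr19:5794778-5795673 ended 16 bp short of it and was therefore not counted on Malat1. With a score of 211.2 (rank 3255), it was this list's highest scoring peak of the window. The gene ends are given as approximate, so these few bases do not settle on which side of the 3′ end the peaks lie. Between both ends, 4.21 kb of the 6.98 kb of Malat1 had no peak in any list. Peaks covered 22.5% ± 11.5 (SD, n = 2) of Malat1 in the knock-in lists, 25.5% for CIRH1A, 9.08% for UTP3 and 9.01% for overexpressed PSPC1. In flanks as long as Malat1 on either side, the covered share was 11.4% in knock-in replicate 1 and 52.5% in replicate 2, against 14.4 and 30.7% on the gene. It was 12.7% for CIRH1A, 8.89% for UTP3 and 7.83% for overexpressed PSPC1, where the peaks at the gene's ends run on into the flanks or lie just beside them. The coverage of Malat1 was thus below that of its flanks in replicate 2. It was above that of the flanks in the other 4 lists with a peak on the gene. The flank share is taken over both flanks together, a longer stretch than the gene. A peak across a gene end can therefore give the gene the higher share with fewer bases on it. On the gene lay 1006 of 2598 bp of the replicate 1 start peak and 1778 of 3546 bp for CIRH1A. It was 634 of 1875 bp for UTP3 and 629 of 826 bp for the start peak of overexpressed PSPC1. The comparison does not show a preference for the gene. Among the 6670 highest scoring peaks of each list, those on Malat1 were the start peaks of both knock-in libraries.

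Of 377811 tiles of the length of Malat1, 5.42% held a peak of knock-in replicate 1, 6.58% of replicate 2, 5.4% of overexpressed PSPC1, 2.81% of CIRH1A and 4.32% of UTP3. The lists with no peak on the gene had shares of 11.6% for UTP6, 3.45% for SAFB, 3.01% for hnRNPU and 2.08% for SAFB2. Peaks in at least 5 lists were found in 2.72% of tiles in the genome and in 30 of 286 tiles (10.5%) within 1 Mb on each side. By list, the local share was 15.4% for knock-in replicate 1, 24.5% for replicate 2, 21.3% for overexpressed PSPC1, 14% for CIRH1A and 17.8% for UTP3. Among the lists with no peak on Malat1 it was 38.8% for UTP6, 4.2% for SAFB, 6.29% for hnRNPU and 2.8% for SAFB2. Malat1 and Neat1 shared the 3 PSPC1 lists. hnRNPU had a peak on Neat1 alone, and CIRH1A and UTP3 on Malat1 alone. With 1 library per protein and 1 peak in each case, these differences between the genes could not be tested.

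**Figure D4:**
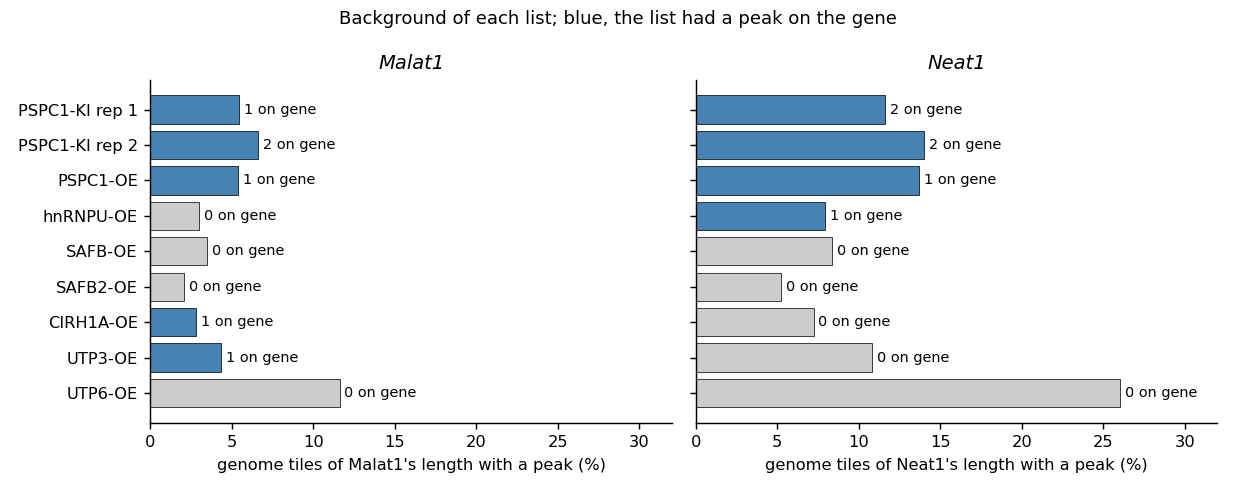
Bars give the percentage of all genome tiles as long as Malat1 (left) or Neat1 (right) that hold a peak of each list, and the text beside each bar gives the peaks on the gene. Blue bars are lists with a peak on the gene, and UTP6, with the largest background of 11.6 and 26%, has none on either.

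The peaks on the genes were wide for their lists but not high in score. All 12 were wider than the median peak of their list, by 1.01 to 6.64 times, and 11 of them were among the widest 20%. The hnRNPU peak on Neat1 measured 5287 bp against a list median of 796 bp and ranked 13 of 10279 by width. The CIRH1A peak on Malat1 measured 3546 bp against a median of 853 bp and ranked 46 of 9689. By score, 5 of the 12 were in the upper 50% of their list. The CIRH1A peak was at 82.2% from the top and the UTP3 peak at 84.8%, near the bottom of their lists. The highest placed was the knock-in replicate 2 peak at the Malat1 start, at 18.5%. Wider peaks touch an interval more readily, and 7 of the 10 peaks of the window that lay off the genes were also wider than their list's median. How much of the width follows from this was not tested.

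**Figure D5:**
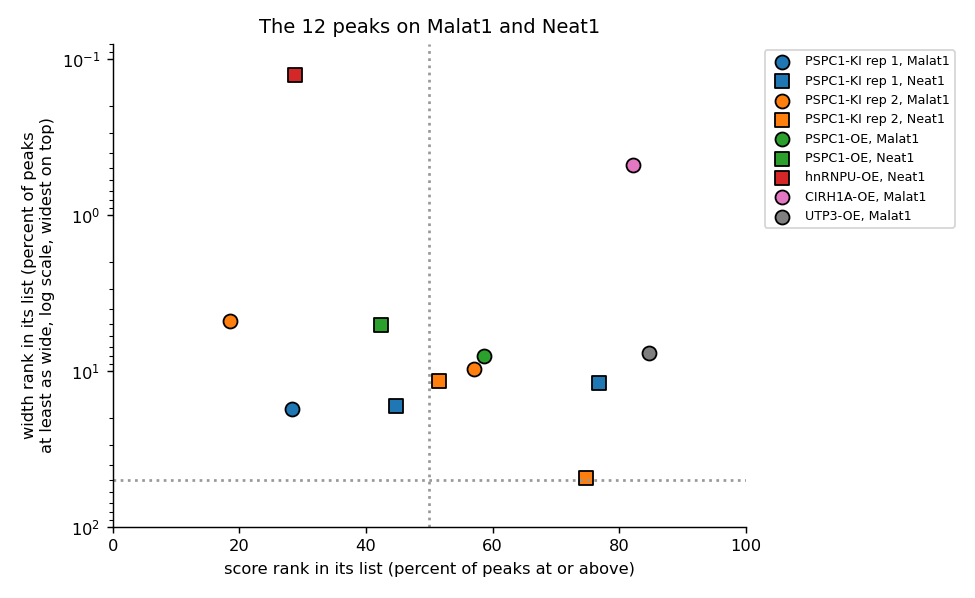
Each point is 1 of the 12 peaks on Malat1 (circles) or Neat1 (squares), coloured by list, with its score rank in percent on the horizontal axis and its width rank in percent on a logarithmic vertical axis, widest on top. All 12 points lie above the dotted 50% line for width, and 5 lie left of the dotted 50% line for score.

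Away from the genes the window held 10 peaks. Overexpressed PSPC1 and UTP6 overlapped between Malat1 and Neat1, at chr19:5817801-5818417 with a score of 182.6 (rank 4119 of 22785) and at chr19:5817525-5818535 with a score of 77.0 (rank 28703 of 40217). Knock-in replicate 2 and UTP6 overlapped upstream of Neat1, at chr19:5847879-5851021 and chr19:5848595-5850753. Merging all peaks of the window gave 10 regions, 6 of them with peaks of at least 2 lists. Both adjacent windows also held regions with peaks of at least 2 lists, so such sharing was not particular to the locus. The most lists in a region of the window was 4, at the Malat1 start (chr19:5800537-5804573) and at the 5′ part of Neat1 (chr19:5840406-5847266). In the adjacent windows the highest number was 5, above both genes.

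The knock-in replicates shared part of their peaks in the window. All 3 peaks of replicate 1 overlapped a peak of replicate 2, but 2 of the 7 of replicate 2 overlapped a peak of replicate 1. On chromosome 19 as a whole these shares were 67.0 and 50.8%. Replicate 2 alone had the peaks at the 3′ ends of both genes, the peak upstream of Neat1 and a peak at chr19:5805400-5807771, upstream of Malat1. Its list was also longer, with 22926 peaks against 18455. The peaks found in both knock-in libraries and in the overexpression list were those at the Malat1 start and in the 5′ part of Neat1. At Neat1 this rests on the replicate 1 peak with a score of 37.1, below the minimum of 50 in the overexpression list, and with a minimum of 50 in every list no replicate 1 peak overlapped the overexpression peak there. Among the PSPC1 lists, only replicate 1 had a peak at the Neat1 start itself, which the hnRNPU peak also spanned. The replicate 1 peak there overlapped the replicate 2 peak downstream of the start.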

How the data were processed

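The deposited files were peak lists, 1 per library and not pooled, with a chromosome, start, end, peak name and score. The score is the authors' deposited value per peak, of unstated scale, and was used to rank peaks within a list. Peak names carry the name MACS per the file contents. Its version, threshold and control library are not given in the sources used here. The build mm9 and the tools CASAVA, Bowtie2 and TopHat are named in the submitters' processing notes, with no role. The lowest score was 30.0 in the knock-in lists and 50 in the others. Read depth is unknown and the lists held from 6670 to 40217 peaks, so an absent peak is not an absent protein. The titles number the knock-in libraries as replicates, which may be technical. The other 49 samples were not analysed here.

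Peaks were assigned at an overlap of at least 1 bp, with positions counted from 1. Chromosome lengths were taken as the largest peak end in any list. Members and intervals were chosen with earlier results of these data known. The intervals equal or nearly equal those of GRCm38. They were therefore checked: of 182 RefSeq starts at 3 to 7 Mb of chromosome 19, 59.9% lay in a UTP6 peak with no offset, the best of all offsets up to 120 kb, whereas beyond 7 Mb an offset of 74.5 kb was best. No offset between the builds was thus found in this stretch, at steps of 500 bp and over all starts together; a smaller shift at the locus itself was not checked. Named peaks were, by rule, all knock-in peaks on the genes and the highest scoring peak on each gene in each other list; other peaks named were chosen after their positions were seen. Alternatives were midpoints, a score minimum, equal list sizes, intervals extended by 2 kb and each knock-in library left out. Of the procedures, the tile shares, interval overlaps and covered bases were tested on simulated peaks. The tools were Python 3.11.15 with scipy 1.17.1, pandas 2.3.3, numpy 2.4.6 and, for plots, matplotlib 3.10.9.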

Additional observations from a re-analysis of the deposited data

How the results depend on the processing

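Requiring the peak midpoint inside the gene lowered the lists on Malat1 from 5 to 3, since the peak of knock-in replicate 1 at the start and the UTP3 peak at the 3′ end are centred outside it; the lists on Neat1 stayed at 4. With each list cut to its top 6670 peaks by score, 5 peaks were left in the window. Then 2 lists had a peak on Malat1 (both knock-in libraries) and 1 on Neat1 (hnRNPU). The median ratio to the genome density was 0 in place of 3.52, since most lists had no peak left. The ratio was 5.31 and 5.29 in knock-in replicates 1 and 2, 5.32 for hnRNPU and 10.8 for overexpressed PSPC1, from 1 or 2 peaks each. It was 0 in all other lists. Fewer peaks enter this alternative by construction. A score of at least 50 left 18 peaks, and intervals extended by 2 kb added UTP6 to Neat1, for 5 lists. Without either knock-in replicate, 3 lists had a peak on Neat1, 4 on Malat1, the window held 15 to 19 peaks and the median ratio was 3.49. The density within 1 Mb on each side, added after seeing the data together with the local tiles, gave a median ratio of 0.997. Restricting tiles to chromosome 19 moved all 18 tile shares beyond their interval, 14 upward; shifting tiles moved 0 of 18. Peaks of 500 bp lowered 9 of 18 shares of gene length covered, which were all those above 0. A score of at least 50 lowered the covered share of Neat1 in knock-in replicate 1 to 4.13% and in replicate 2 from 18.4 to 13.8%, and that of Malat1 in replicate 2 from 30.7 to 30.6%. Adjacent windows of 100 kb raised SAFB2 there from 0 to 0.5 peaks per 100 kb and moved the other 8 densities by no more than 1.5 times. Read depth, which is unknown, limits every absence and count. No paired analysis was possible because replicate numbers exist for PSPC1 knock-in alone among the lists and the results come from no test.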
